A study of Mus musculus with 16 samples.

Results

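The enzymes that write, maintain and remove DNA methylation were followed at the RNA level in male mouse germ cells of wildtype mice and of mice lacking the microRNA miR-202. The set held 8 genes taken by name, Dnmt1, Dnmt3a, Dnmt3b, Dnmt3l, Uhrf1, Tet1, Tet2 and Tet3, out of 22293 genes measured. All 8 had a value in each of 16 RNA sequencing libraries. Spermatogonia were isolated from pups aged 6 to 7 days, with 2 libraries of each genotype. Spermatocytes were isolated from adults, with 3 of each genotype. Cultured spermatogonial stem cells, derived from pups of the same age as the spermatogonia and grown with the growth factors GDNF and bFGF, also gave 3 libraries of each genotype. All mice were male and of the strain labelled C57;ICR, and the knockout groups differ from the wildtype groups in the label only by the loss of miR-202. Spermatocytes were the only adult cells, so cell type and age cannot be told apart in comparisons with them. The submitters call the replicates biological, but the labels say neither how cells were purified nor whether the libraries of a group came from separate animals, so p-values measure the spread between these libraries, which may be partly technical.

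DNA methylation is placed on cytosines that precede guanines. Dnmt1 copies it to the new strand after replication, and Uhrf1 binds the half-methylated DNA and brings Dnmt1 there. Dnmt3a and Dnmt3b methylate DNA anew, and Dnmt3l, which has no catalytic activity of its own, stimulates them; in the mouse male germ line the main wave of new methylation falls before birth, in prospermatogonia. Tet1, Tet2 and Tet3 oxidise methylcytosine, after which the mark is lost by dilution at replication or by base excision repair.

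The 2 mature strands of miR-202 are shown because the knockout removes them. RefSeq places both on chromosome 7 of GRCm38.p6, on the minus strand, at chr7:139957695-139957716 for the 3p strand and chr7:139957732-139957752 for the 5p strand. Capitals mark the seed, bases 2 to 8.
mmu-miR-202-3p: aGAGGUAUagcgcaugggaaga
mmu-miR-202-5p: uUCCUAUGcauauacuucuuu
The DNA letters complementary to these seeds are ATACCTC and CATAGGA, and they do not overlap each other in sequence. They were looked for on the transcript strand in the longest annotated 3' UTR of each gene (GENCODE M21, GRCm38). ATACCTC was found in 2 of the 8 genes, against 5.91% of 21007 genes with a UTR, and CATAGGA in 4 of 8, against 7.64%. These shares were not matched for UTR length, so the counts do not show an excess of matches. The matches are shown with 10 bases on either side, the match in capitals, since they are the letters in these UTRs complementary to a whole seed.
Tet2 for 3p: acttgtcgtcATACCTCaacactagct
Tet3 for 3p: ttttttttaaATACCTCaaaacaggac
Tet2 for 5p: tggttaagtcCATAGGActctactggt
Tet1 for 5p: aaacacagctCATAGGAaagattaaat
Dnmt3a for 5p: taattcctctCATAGGAcccagtaagc
Dnmt3l for 5p: tcaaatatatCATAGGAttgttactgg
Tet2 was the 1 gene with a match to both seeds. Dnmt1, Dnmt3b and Uhrf1 had neither, in UTRs of 312, 1331 and 984 bases. The UTRs of Tet1, Dnmt3a, Tet3 and Tet2 were longer, 7962, 6696, 5669 and 3058 bases, and that of Dnmt3l was 273 bases. A match is a string in an annotation, not a measured site, and the lack of one says only that the letters are not in that UTR.

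Values are FPKM, which divides the fragments of a gene by its length and by the library's total, so levels of different genes can be compared per length. FPKM summed to 262109 to 395564 per library and the depth behind them is unknown. Mir202 was at 0 FPKM in all 16 libraries, so the files hold no check of the genotype. Markers separated spermatocytes from the other cells and spermatogonia from cultures less fully. Sohlh1, a regulator of spermatogonial differentiation, stood at 65.3 ± 9.97 FPKM in wildtype spermatogonia (SD, n = 2), Gfra1, the GDNF receptor, at 57.4 ± 16.1 in wildtype cultures (n = 3), and the spermatocyte list summed to 7717 to 8155 FPKM in wildtype spermatocytes against 123.8 to 132.4 in wildtype spermatogonia. Sohlh2, of the same list as Sohlh1, was higher in wildtype cultures (65.6 ± 16.4) than in spermatogonia (29.2 ± 3.93). That list had 4 of 11 genes higher and 4 lower in cultures, where 30.5% of all genes were higher and 22.6% lower. Id4, of the undifferentiated list, was higher in wildtype spermatocytes (37.7 ± 8.46) than in spermatogonia (12.2 ± 0.204). Markers of other cells were present. The Sertoli list (12 genes) summed to 1724 and 2520 FPKM in wildtype spermatogonia, the fibroblast and feeder list (14 genes) to 795.8 to 1155 in wildtype cultures and 947.7 and 1099 in wildtype spermatogonia, and the spermatid list to 3519 to 5545 in wildtype spermatocytes. Libraries of a group correlated across genes at 0.97 or more on the log2 scale, and the lowest value came from the wildtype cultures, where replicate 3 stood apart in several of the genes below. In bulk samples like these, fewer cells of a type and less RNA per cell cannot be told apart.

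**Figure D1:**
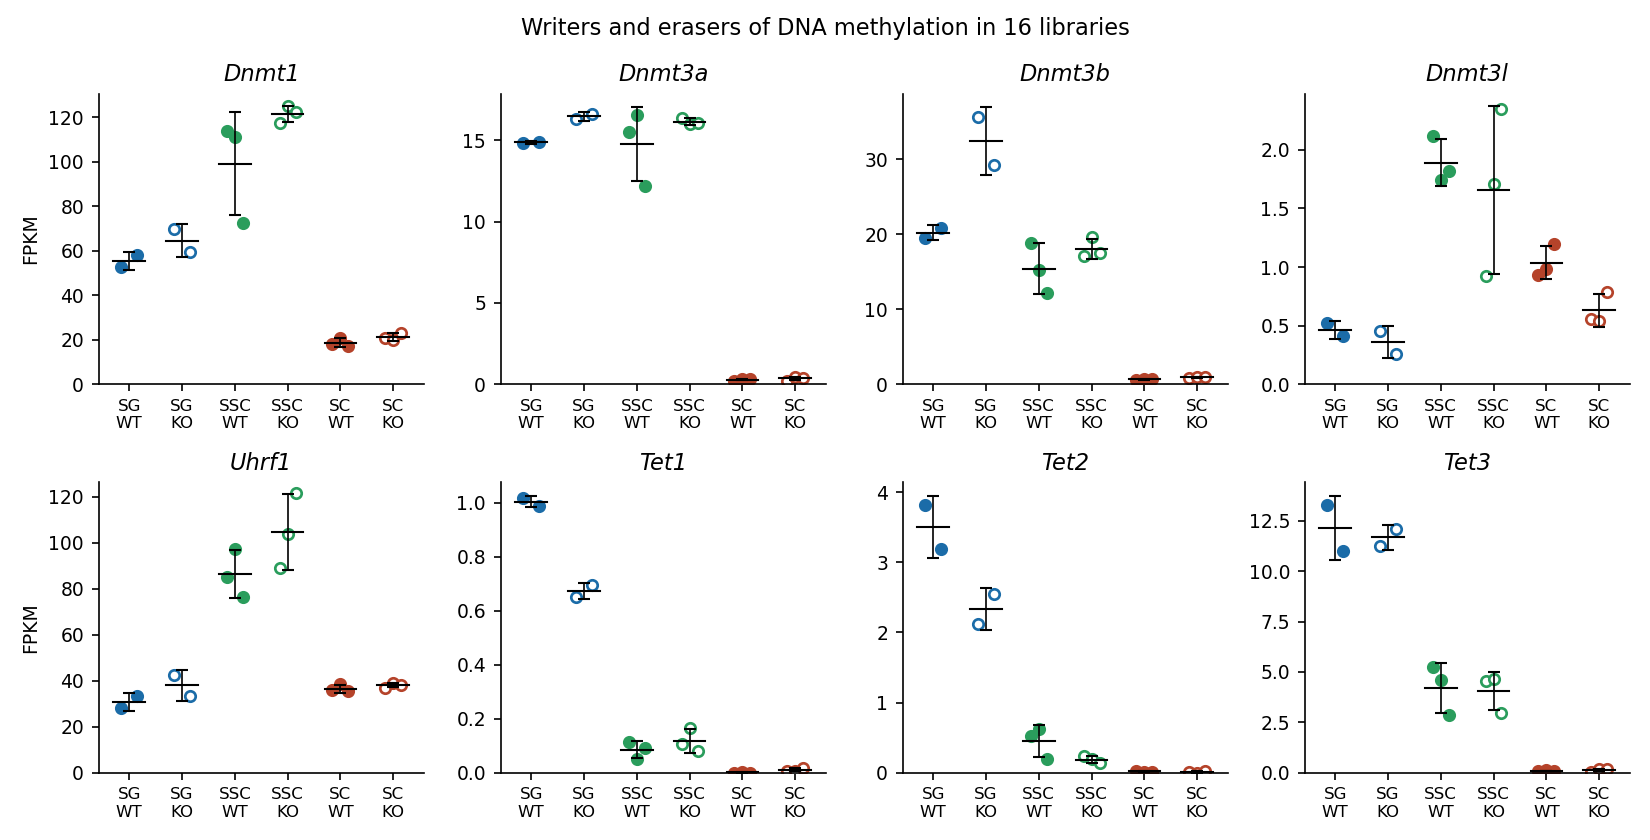
FPKM of the 8 genes in each of the 16 libraries, on linear axes that start at 0 and differ between panels. Points are libraries (filled, wildtype; open, knockout; SG, spermatogonia; SSC, cultured stem cells; SC, spermatocytes), lines the group mean and bars 1 SD (n = 2 for SG, 3 for the others); Dnmt3a, Dnmt3b and all 3 Tet genes lie near 0 in spermatocytes, while Uhrf1 does not.

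Dnmt1 was the most abundant writer in every group. Its FPKM was 52.6 and 58.1 in wildtype spermatogonia, 114, 111 and 72.6 in wildtype cultures, and 18.3, 20.8 and 17.0 in wildtype spermatocytes. No libraries of these 3 groups overlapped, and the cultures were highest and the spermatocytes lowest. In wildtype cultures 4.38% of genes with a mean FPKM of at least 1 stood above it, in wildtype spermatogonia 8.76%, and in wildtype spermatocytes 37.4%. Differences were tested on log2(FPKM + 1) with limma over all genes, with Benjamini-Hochberg adjustment within each comparison; this scale understates the change of genes near or below 1 FPKM. Dnmt1 was higher in cultures than in spermatogonia by 0.80 (SE 0.17, adjusted p = 0.00105) and lower in spermatocytes than in spermatogonia by a log2 difference of -1.52 (SE 0.17, adjusted p = 4.65e-07). Without the low wildtype culture, replicate 3, the difference between cultures and spermatogonia was 1.01.

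Uhrf1, the partner that guides Dnmt1, kept a different order. It stood at 28.1 and 33.5 FPKM in wildtype spermatogonia, at 85.1, 97.4 and 76.5 in wildtype cultures, and at 35.8, 38.5 and 35.4 in wildtype spermatocytes. Cultures were again highest, but spermatocytes lay just above spermatogonia and did not overlap with them. The difference between cultures and spermatogonia was 1.46 (SE 0.15, adjusted p = 1.60e-06). Between spermatocytes and spermatogonia it was 0.25 (95% interval -0.08 to 0.57, adjusted p = 0.135), which missed the threshold. That last value depends on the scaling. The median of all 13806 genes tested between these cell types was -0.73, and median-ratio scaling, which brings it to -0.02, gave Uhrf1 a difference of 1.11 (adjusted p = 2.95e-06), while quantile normalization gave 0.04 (adjusted p = 0.823).

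The ratio of Uhrf1 to Dnmt1 within a library does not depend on scaling. It was 0.534 and 0.577 in wildtype spermatogonia, 0.748 to 1.054 in wildtype cultures and 1.86 to 2.08 in wildtype spermatocytes. Spermatocytes were thus the cells with more Uhrf1 than Dnmt1 RNA in every library, and isolated spermatogonia had less Uhrf1 than Dnmt1 in every library. The knockout libraries fell at 0.560 and 0.612, 0.756 to 0.996 and 1.64 to 1.99 in the same order of cell types. Of a list of 18 DNA replication genes, 14 were lower and 2 higher in spermatocytes than in spermatogonia (median -1.66, against -0.73 over all genes), where 55.2% of all genes were lower and 33.8% higher. In cultures 11 of the 18 were higher and 1 lower than in spermatogonia (median 0.61, against 0.12), where 30.5% of all genes were higher and 22.6% lower. Mcm2, a subunit of the replicative helicase, stood at 85.5 ± 9.04 FPKM in wildtype spermatogonia, 108 ± 10.6 in wildtype cultures and 0.722 ± 0.266 in wildtype spermatocytes (n = 2, 3 and 3).

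**Figure D2:**
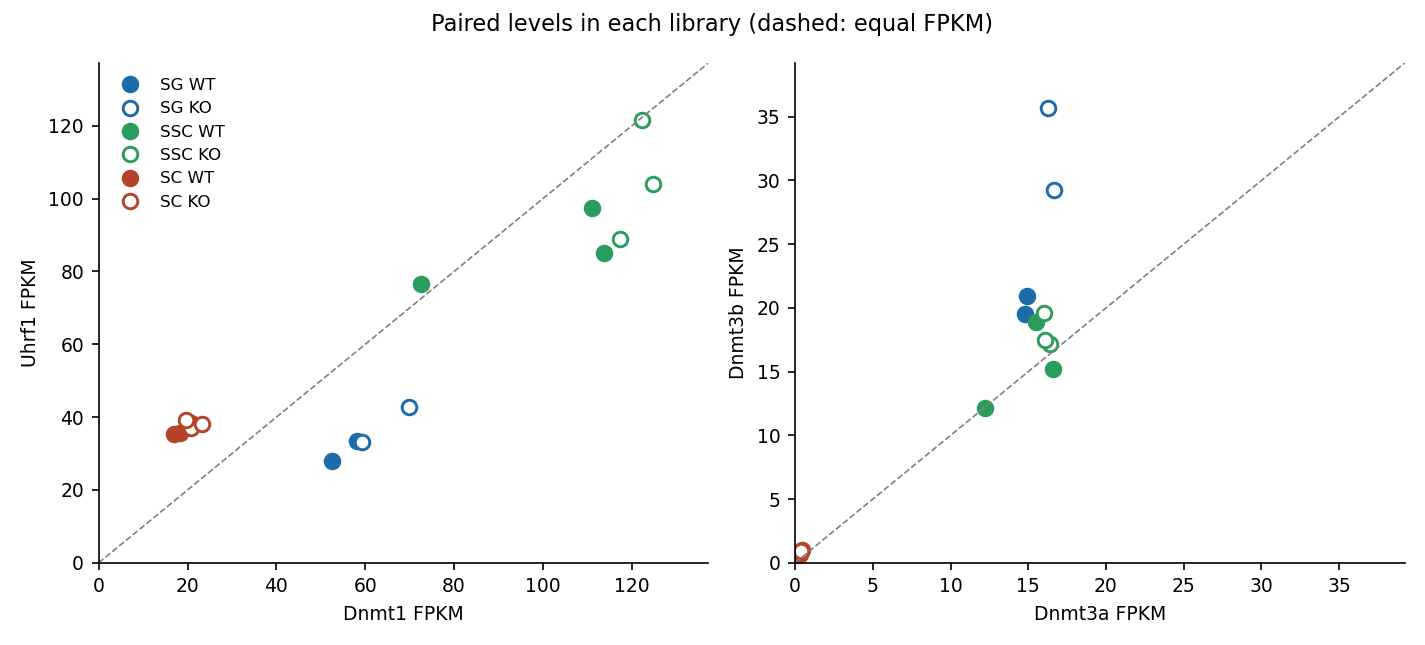
Uhrf1 against Dnmt1 (left) and Dnmt3b against Dnmt3a (right), both in FPKM, 1 point per library (filled, wildtype; open, knockout), with a dashed line of equal FPKM. Spermatocytes lie above the line and spermatogonia below it on the left; on the right the 2 knockout spermatogonia libraries have the highest Dnmt3b, 35.7 and 29.3.

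The de novo enzymes Dnmt3a and Dnmt3b were present in spermatogonia and cultures and close to absent in spermatocytes. Dnmt3a stood at 14.8 and 14.9 FPKM in wildtype spermatogonia, at 15.5, 16.6 and 12.2 in wildtype cultures, and at 0.225, 0.333 and 0.308 in wildtype spermatocytes. Dnmt3b stood at 19.5 and 20.9, at 18.9, 15.2 and 12.1, and at 0.610, 0.698 and 0.692 in the same groups. For both genes the spermatocyte libraries lay apart from all others. On the linear scale the wildtype mean was 51.5 times higher in spermatogonia than in spermatocytes for Dnmt3a and 30.3 times for Dnmt3b, and the log2 differences were -3.62 (SE 0.13, adjusted p = 1.37e-12) and -3.67 (SE 0.16, adjusted p = 5.95e-12). Over the 16 libraries the 2 genes correlated at r = 0.987 on the log2 scale, a value that rests mostly on the gap between spermatocytes and the rest.

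Between cultures and spermatogonia, Dnmt3a differed by -0.02 (95% interval -0.31 to 0.27, adjusted p = 0.910), with overlapping libraries. Dnmt3b was lower in cultures by -0.39 (SE 0.16, adjusted p = 0.0462), with the libraries apart. That call was marginal, and it was lost when replicate 1 or 2 of wildtype spermatogonia was left out (adjusted p = 0.110 and 0.193), when replicate 2 or 3 of the wildtype cultures was (0.0803 and 0.152), and under the settings named at the end. Within libraries, Dnmt3b stood at 1.32 and 1.401 times Dnmt3a in wildtype spermatogonia, and at 0.919 to 1.22 times Dnmt3a in wildtype cultures.

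Dnmt3l, the cofactor without catalytic activity, was low in all cells and followed neither de novo enzyme. Its FPKM was 0.519 and 0.410 in wildtype spermatogonia, 2.12, 1.74 and 1.82 in wildtype cultures, and 0.928, 0.984 and 1.20 in wildtype spermatocytes. The 3 groups did not overlap, with spermatogonia lowest and cultures highest. Cultures exceeded spermatogonia by 0.98 (SE 0.18, adjusted p = 0.000393), and spermatocytes stood below cultures by a log2 difference of -0.51 (SE 0.16, adjusted p = 0.00861). The second difference changed sign with the scaling, to 0.39 with quantile normalization (adjusted p = 0.0262) and 0.06 with median-ratio scaling (adjusted p = 0.727). Only cultures had at least 2 libraries at an FPKM of 1 or above, as a test required, so higher values there were largely set by this filter. Against Dnmt3a and Dnmt3b, Dnmt3l correlated at r = 0.22 and 0.101 over the 16 libraries.

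The 3 erasers were all highest in isolated spermatogonia. Tet3 led, at 13.3 and 11.02 FPKM in wildtype spermatogonia, 5.22, 4.61 and 2.84 in wildtype cultures, and 0.0834, 0.113 and 0.0833 in wildtype spermatocytes. Tet2 stood at 3.82 and 3.19, at 0.528, 0.628 and 0.195, and at 0.0311, 0.0175 and 0.0124. Tet1 stood at 1.02 and 0.989, at 0.114, 0.0526 and 0.0900, and was listed at 0 in 2 of 3 wildtype spermatocyte libraries and at 0.00380 in the other. For each Tet gene the order was spermatogonia, cultures, spermatocytes, and no wildtype library of 1 cell type overlapped with another.

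Tet3 was lower in cultures than in spermatogonia by a log2 difference of -1.36 (SE 0.20, adjusted p = 4.13e-05) and in spermatocytes than in spermatogonia by -3.58 (SE 0.20, adjusted p = 1.06e-10). Tet2 was lower by -1.64 (SE 0.13, adjusted p = 1.01e-07) and -2.14 (SE 0.13, adjusted p = 3.74e-10) in the same contrasts. Tet1 did not pass the filter on low values, an FPKM of at least 1 in at least 2 libraries of a cell type, and was not tested. Tet2 passed it only through spermatogonia, so its lower values elsewhere were largely set by the filter. As linear means, wildtype spermatogonia held 2.88 times the Tet3, 7.78 times the Tet2 and 11.7 times the Tet1 of wildtype cultures. Tet1 and Tet2 correlated over the 16 libraries at r = 0.978, above the values of either with Tet3 (0.825 and 0.853). The value of 0.978 rests mostly on the gap between spermatogonia and the other cells, in which both genes were below 1 FPKM.

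The makeup of both families differed between cell types. Of the summed FPKM of Dnmt1, Dnmt3a and Dnmt3b, Dnmt1 made up 60.5% and 61.9% in wildtype spermatogonia, 74.9% to 77.7% in wildtype cultures and 94.4% to 95.6% in wildtype spermatocytes. Of the summed Tet FPKM, Tet3 made up 72.5% and 73.3% in wildtype spermatogonia and 87.1% to 90.9% in wildtype cultures, and Tet2 a mean of 21.04% ± 0.0562 (SD, n = 2) against 6.24% to 11.9%. Neither the Dnmt1 share nor the Tet shares overlapped between these groups. The summed Dnmt FPKM was 4.80 and 6.17 times the summed Tet FPKM in wildtype spermatogonia and 25.3 to 31.0 times in wildtype cultures. In wildtype spermatocytes the ratio was 162.8 to 188.3, on a Tet sum of only 0.0957 to 0.134 FPKM.

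**Figure D3:**
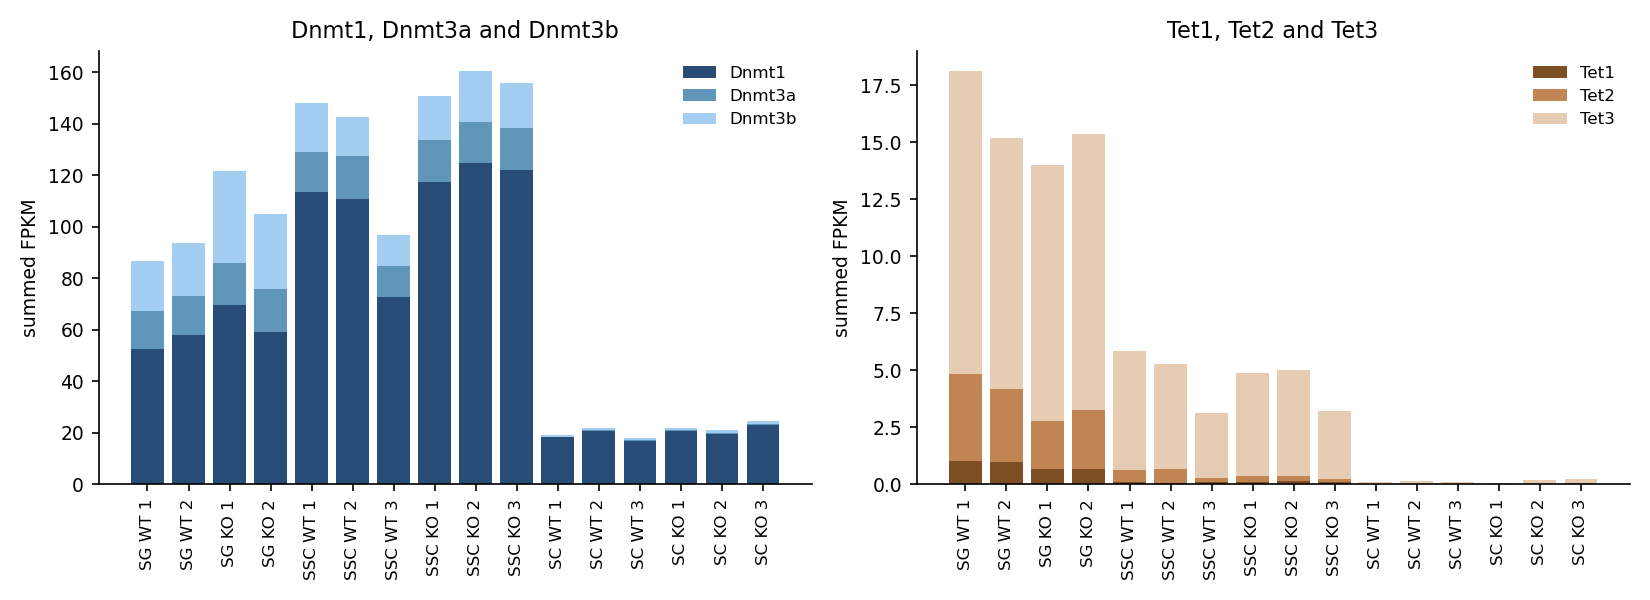
Summed FPKM of Dnmt1, Dnmt3a and Dnmt3b (left) and of Tet1, Tet2 and Tet3 (right), 1 bar per library, stacked by gene, with axes from 0. The Dnmt bars are tallest in cultures and the Tet bars in spermatogonia, where the lowest library sums to 14.0 FPKM; wildtype culture replicate 3 is the lowest culture in both panels.

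Over the whole set, 5 of 6 genes tested were lower in wildtype spermatocytes than in wildtype spermatogonia and none was higher (limma; 0 at an unadjusted p under 0.05), where 55.2% of all genes tested were lower. Dnmt3a, Dnmt3b, Tet2 and Tet3 passed the filter only through spermatogonia, so this count was largely set by the filter. With median-ratio scaling Uhrf1 was called higher. In a limma fit without the filter, Dnmt3l was higher in spermatocytes by 0.47 (adjusted p = 0.0302). Against cultures all 6 genes tested were lower in spermatocytes, where 56.9% of all genes were. Here Dnmt3a, Dnmt3b, Dnmt3l and Tet3 passed the filter only through cultures, so this count too was largely set by the filter. With median-ratio scaling 4 of the 6 were called, without Uhrf1 and Dnmt3l, and with quantile normalization Dnmt3l was called higher. Between cultures and spermatogonia 3 genes were higher (Dnmt1, Uhrf1 and Dnmt3l) and 3 lower (Dnmt3b, Tet2 and Tet3) of 7 tested, where 30.5% of all genes were higher and 22.6% lower. Dnmt3l passed the filter only through cultures and Tet2 only through spermatogonia, so their directions were largely set by the filter. These comparisons move most of the transcriptome, with 89% and 90.1% of genes called in either direction in the first 2 and 53.2% in the third; libraries did not overlap in 93.3%, 88.9% and 66.7% of genes. The genes left untested were Dnmt3l and Tet1 in the first, Tet1 and Tet2 in the second and Tet1 in the third. The 3 comparisons share wildtype groups.

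**Figure D4:**
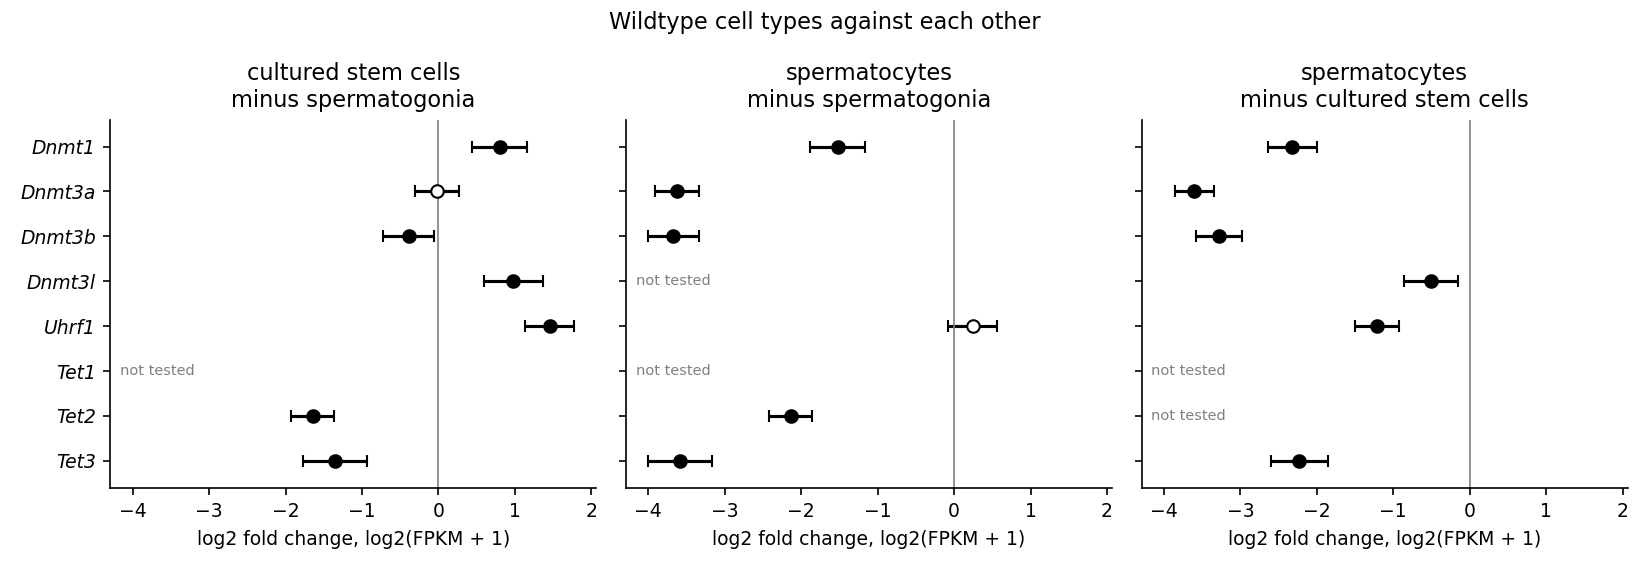
Log2 differences between wildtype cell types on the log2(FPKM + 1) scale, with 95% intervals from limma; filled points passed an adjusted p of 0.05. Dnmt1, Dnmt3a, Dnmt3b and Tet3 lie left of 0 in both panels on spermatocytes, and Uhrf1 does so against cultures only, where it stands at -1.21.

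In knockout spermatogonia Dnmt3b was higher and no gene of the set was called lower. Dnmt3b stood at 35.7 and 29.3 FPKM in the knockout libraries against 19.5 and 20.9 in wildtype, a mean of 32.5 ± 4.52 against 20.2 ± 0.967 (SD, n = 2 and 2). The groups did not overlap, as in 56.1% of all genes tested here, and the mean was 1.61 times higher. The log2 difference was 0.65 (SE 0.17, 95% interval 0.29 to 1.01, limma with Benjamini-Hochberg adjustment, adjusted p = 0.0325). Leaving out wildtype replicate 1 ended the call (adjusted p = 0.226), as did leaving out wildtype replicate 2 (0.0980), knockout replicate 1 (0.247) or knockout replicate 2 (0.0575); a pseudocount of 0.1 did so too (0.131). The difference itself was 0.51 to 0.79 with a library left out. Of the 6 genes tested, 1 was higher, where 0.917% of 11997 genes were higher and 5.76% lower, 6.68% in all.

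Dnmt3a and Dnmt1 leaned the same way by less. Dnmt3a stood at 16.3 and 16.6 FPKM in knockout spermatogonia (0.14, adjusted p = 0.687), and Dnmt1 at 69.7 and 59.3 (0.22, 95% interval -0.18 to 0.61, adjusted p = 0.596). Neither passed the test, although the libraries of both did not overlap with wildtype; groups of 2 against 2 failed to overlap in 56.1% of all genes tested here. Uhrf1 stood at 42.7 and 33.2 (0.29, adjusted p = 0.376), with overlap. Dnmt3b made up 29.3% and 27.8% of the summed Dnmt FPKM in knockout spermatogonia against 22.5% and 22.3% in wildtype, and Dnmt1 57.3% and 56.4% against 60.5% and 61.9%.

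Of the erasers tested, Tet2 had the larger difference. It stood at 2.13 and 2.55 FPKM in knockout spermatogonia against 3.82 and 3.19 in wildtype, without overlap, as in 56.1% of all genes tested. The log2 difference of -0.43 (SE 0.14, 95% interval -0.74 to -0.13) missed the threshold (limma, adjusted p = 0.0901). Tet3 stood at 11.2 and 12.1 FPKM against 13.3 and 11.02, with overlap (-0.05, adjusted p = 0.937; above 0 with quantile or median-ratio scaling). Tet1 stood at 0.652 and 0.695 FPKM against 1.02 and 0.989, without overlap, and was too low for the test. In a limma fit without the filter, Tet1 had a log2 difference of -0.26 (SE 0.042, adjusted p = 0.00308). Its spread was pooled over all 16 libraries, most of them near 0 FPKM for Tet1. This p-value therefore does not measure the spread between spermatogonia libraries alone. Dnmt3l, also too low, stood at 0.457 and 0.261 against 0.519 and 0.410, with overlap. The share of Tet2 in the Tet sum was 15.2% and 16.6% in the knockout, below both wildtype libraries (mean 21.04%).

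Cell type markers were compared between the same knockout and wildtype spermatogonia. The list of differentiating spermatogonia (12 genes) summed to 924.8 and 1097 FPKM in knockout spermatogonia and 640.6 and 777.6 in wildtype, with 0 of 11 tested genes called (limma; at an unadjusted p under 0.05, 5 higher and 1 lower) and a median of 0.53. Kit, the receptor of those cells, stood at 28.4 ± 2.25 and 18.4 ± 1.63 FPKM (n = 2 each). The fibroblast list summed to 392.0 and 412.9 FPKM in the knockout against 947.7 and 1099 in wildtype, with 7 of 11 tested genes lower. The myoid list (8 genes) summed to 49.3 and 51.5 against 193.2 and 255.0, with 5 of 8 lower. Over all genes, 5.76% were lower. The Sertoli list summed to 1626 and 1878 against 1724 and 2520, with 0 of 12 called (limma; at an unadjusted p under 0.05, 3 lower). The spermatocyte list summed to 190.2 and 157.9 FPKM against 123.8 and 132.4, with 2 of 10 genes higher, where 0.917% of all genes were. The spermatid list summed to 39.4 and 134.9 against 33.1 and 37.8, with knockout replicate 2 the high library. The part of these cells in the values of Dnmt3b, Tet1 and Tet2 was not tested.

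**Figure D5:**
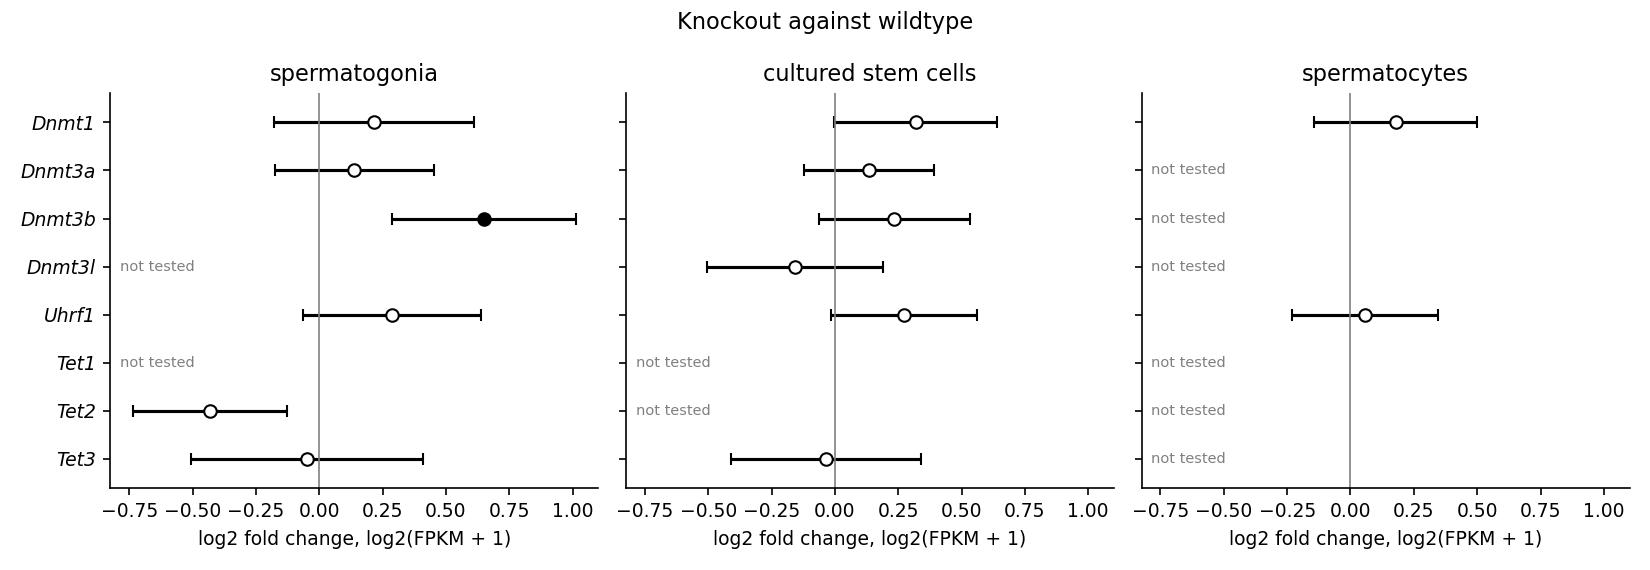
Log2 differences of knockout minus wildtype on the log2(FPKM + 1) scale in each cell type, with 95% intervals from limma; the filled point passed an adjusted p of 0.05. Dnmt3b in spermatogonia, at 0.65, is the filled point, and 6 of 8 genes were too low to be tested in spermatocytes.

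In cultured stem cells 0 of 6 genes tested were called (limma; 0 also at an unadjusted p under 0.05), where 6.17% of 12046 genes were called. Dnmt1 came nearest. It stood at 117, 125 and 122 FPKM in knockout cultures against 114, 111 and 72.6 in wildtype, without overlap, as in 18.3% of all genes. The difference of 0.32 (SE 0.15, adjusted p = 0.307) was 0.11 without wildtype replicate 3, the low library. Uhrf1 stood at 88.8, 103.9 and 122 FPKM against 85.1, 97.4 and 76.5 (0.27, adjusted p = 0.337), with overlap. Dnmt3b stood at 17.1, 19.6 and 17.5 (0.23, 95% interval -0.06 to 0.53, adjusted p = 0.434) and Dnmt3a at 16.4, 16.03 and 16.05 (0.13, adjusted p = 0.626), both overlapping with wildtype.

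Dnmt3l was spread more widely in knockout than in wildtype cultures (SD 0.715 and 0.200). It stood at 0.920, 1.70 and 2.35 FPKM, a range that holds every wildtype culture (-0.16, adjusted p = 0.685). Tet3 stood at 4.55, 4.65 and 2.99 FPKM and overlapped with wildtype (-0.03, adjusted p = 0.948). Tet2, too low for the test, stood at 0.244, 0.189 and 0.133 FPKM against 0.528, 0.628 and 0.195, so that the low wildtype library, replicate 3, lay among the knockout libraries. Tet1 stood at 0.106, 0.166 and 0.0815 FPKM. Here too the fibroblast list was lower in the knockout, 244.1 to 428.1 FPKM in sum against 795.8 to 1155, with 11 of 14 genes called.

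In spermatocytes Dnmt1 and Uhrf1 were the genes high enough to be tested, and 0 of the 2 were called (limma; 0 at an unadjusted p under 0.05), where 0.00974% of 10271 genes were. Dnmt1 stood at 20.9, 19.7 and 23.2 FPKM in the knockout (0.18, 95% interval -0.14 to 0.50, adjusted p = 0.999), and Uhrf1 at 37.0, 39.1 and 38.2 (0.06, 95% interval -0.23 to 0.35, adjusted p = 0.999). Both overlapped with wildtype. Among the genes near or below 1 FPKM, Dnmt3b stood at 0.856, 1.03 and 0.950 in the knockout against 0.610, 0.698 and 0.692, and Dnmt3l at 0.560, 0.539 and 0.790 against 0.928, 0.984 and 1.20. Neither overlapped, where 7.96% of the genes tested did not. Both were below the filter, and in the fit without it they differed by 0.22 and -0.32 (adjusted p = 1 each). Dnmt3a, at 0.228, 0.458 and 0.384 FPKM, overlapped with wildtype, and the 3 Tet genes stayed at or below 0.174 FPKM in every knockout spermatocyte library.

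Whether the knockout acted differently in 2 cell types was tested as a difference of the log2 differences. Between spermatocytes and spermatogonia 0 of 6 genes were called (limma; 1 at an unadjusted p under 0.05, Tet2), where 2.14% of genes were. Between cultures and spermatogonia 0 of 7 were (0 unadjusted), where 1.81% of genes were, and between spermatocytes and cultures 0 of 6 (0 unadjusted), where 2.02% were. The value for Dnmt3b was -0.42 for cultures against spermatogonia (95% interval -0.89 to 0.05, adjusted p = 0.441), so the higher Dnmt3b in knockout spermatogonia is not shown to differ from the 0.23 seen in cultures. Tet2 was near 0 FPKM in spermatocytes of both genotypes, so its value against spermatogonia restates the difference in spermatogonia and is not given.

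The other genes of the pathway were followed in 6 lists that partly overlap. Partners of the writers (15 genes) had 0 calls in the knockout comparisons (limma; at an unadjusted p under 0.05, 1 higher and 1 lower in spermatogonia, 1 higher in cultures, 1 lower in spermatocytes). Between wildtype cells 9 of 13 were lower and 2 higher in spermatocytes than in spermatogonia, where 55.2% of all genes were lower and 33.8% higher. Of the 13, 10 passed the filter in spermatocytes, so the lower count was partly set by it. Hells, a chromatin remodeller needed for DNA methylation, stood at 61.4 ± 0.0784 FPKM in wildtype spermatogonia, 132 ± 26.5 in cultures and 6.92 ± 0.402 in spermatocytes. Cdca7, which works with Hells, stood at 55.9 ± 6.28, 94.9 ± 19.0 and 0.561 ± 0.0851. Both ran in the order cultures, spermatogonia, spermatocytes, as Dnmt1 did, and both were called in the contrasts of spermatocytes with spermatogonia (-2.98 and -5.19).

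Readers of methylated DNA with related proteins (8 genes) and base excision repair (14 genes) were compared in the same way. Of the first list, 6 of 8 were lower and 1 higher in wildtype spermatocytes than in spermatogonia, where 55.2% of all genes were lower. Only 4 of the 8 passed the filter in spermatocytes, so this count was largely set by the filter. Mbd2, which binds methylated CpG, stood at 30.02 ± 1.88 FPKM in wildtype spermatogonia and 7.79 ± 1.23 in spermatocytes (-1.83). Mbd3, a subunit of the NuRD repressor complex, was the higher one, at 35.4 ± 2.73 and 114 ± 4.70 (1.66). In repair, 7 of 11 were lower and 3 higher, a share near that of all genes. Of the 11, 6 passed the filter in spermatocytes, so the lower count was partly set by it. Ung, a uracil glycosylase, stood at 69.0 ± 9.73 and 0.557 ± 0.242 FPKM (-5.49), and Polb, the polymerase that fills the gap, at 13.1 ± 1.26 and 104 ± 12.1 (2.89). In cultures 8 of 12 repair genes were higher than in spermatogonia and 0 lower (limma; 0 at an unadjusted p under 0.05), where 30.5% of all genes were higher and 22.6% lower; among them was Parp1, at 167 ± 30.7 against 70.1 ± 9.55 FPKM (1.23).

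In the knockout comparisons these 2 lists gave 2 calls, both in the list of readers and related proteins. They were 1 of 8 genes tested in spermatogonia and 1 of 8 in cultures, where 6.68% and 6.17% of all genes were called. So few calls do not show an excess. Mbd3 was higher in knockout spermatogonia, 49.8 ± 2.03 FPKM (0.48, adjusted p = 0.0212), a call lost without wildtype replicate 1 (adjusted p = 0.217), knockout replicate 1 (0.130) or knockout replicate 2 (0.0699). Zbtb4, a zinc finger protein that binds methylated CpG, was lower in knockout cultures, 0.510 ± 0.0987 against 1.25 ± 0.365 FPKM (-0.57, adjusted p = 0.0374), and lost the call without wildtype culture replicate 1 or 2 or knockout culture replicate 2 or 3 (adjusted p = 0.0982 to 0.139) and under 5 other settings. Repair had 0 calls in the knockout comparisons (limma; at an unadjusted p under 0.05, 1 lower in spermatogonia, 1 higher and 1 lower in cultures).

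Cofactors and regulators of the Tet enzymes (11 genes) held the largest called knockout differences of the 6 lists. Of 10 tested, 1 was higher and 1 lower in spermatogonia, where 6.68% of all genes were called. In cultures 1 of 10 was lower, where 6.17% of all genes were called. Idh2, a mitochondrial enzyme that makes the 2-oxoglutarate which Tet enzymes consume, stood at 11 ± 0.0226 FPKM in knockout and 33.2 ± 1.73 in wildtype spermatogonia (-1.51, adjusted p = 0.000222). That call held without each of the 4 spermatogonia libraries and was lost with a pseudocount of 0.1 (adjusted p = 0.0705). Gadd45g, a stress protein linked to active demethylation, stood at 76.3 FPKM in knockout and 38.7 ± 7.41 in wildtype spermatogonia (0.97, adjusted p = 0.0300). Its call ended when any of the 4 libraries was left out (adjusted p = 0.0618 and 0.191 for wildtype replicates 1 and 2, 0.0805 and 0.202 for knockout replicates 1 and 2) and with a pseudocount of 0.1 (0.388). Gadd45b, of the same family, was lower in knockout cultures, 5.22 ± 0.756 against 9.10 ± 0.542 FPKM (-0.71, adjusted p = 0.00176; 0.0605 with only the groups compared). In wildtype, 9 of 10 genes of the list were lower in spermatocytes than in spermatogonia (median -4.21, against -0.73 over all genes), where 55.2% of all genes were lower. Only 5 of the 10 passed the filter in spermatocytes, so this count and median were largely set by the filter. In cultures 6 of 10 were lower than in spermatogonia and 1 higher, where 22.6% of all genes were lower and 30.5% higher. Ogt, which binds Tet proteins and adds sugars to them, fell from 27.5 ± 1.68 to 0.425 ± 0.0450 FPKM in spermatocytes (-4.32).

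Methyl donor supply (12 genes) and the piRNA pathway that directs DNA methylation in the mouse germ line (12 of 14 listed genes in the files) had 0 calls in any knockout comparison (limma; at an unadjusted p under 0.05, donor supply 1 lower in spermatogonia and 1 higher in cultures, piRNA 1 higher in spermatogonia and 3 higher in cultures). In wildtype spermatocytes 9 of 10 donor supply genes were lower than in spermatogonia and 0 higher (limma; 1 higher at an unadjusted p under 0.05), where 55.2% of all genes were lower. Mat2b, a subunit of the enzyme that makes S-adenosylmethionine, stood at 61.2 ± 0.778 FPKM in spermatogonia and 4.14 ± 1.29 in spermatocytes (-3.63). The piRNA list was mixed, with 6 of 12 higher and 4 lower in spermatocytes, where 33.8% of all genes were higher and 55.2% lower. Piwil1, a Piwi protein of meiotic and later cells, stood at 1.19 ± 0.0624 and 220 ± 53.7 FPKM (6.63), and Morc1, needed for transposon methylation in the mouse male germ line, at 17.9 ± 1.29 and 1.38 ± 0.204 (-2.99).

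The genes most like each member over the 16 libraries, by Pearson correlation on the log2 scale, are given as a description, since libraries of a cell type share most of their pattern. Dnmt1 was nearest to Ube4b and Anapc1 (r = 0.997 each) and Ints3 (0.996). Dnmt3a was nearest to Etv6, Patz1 and Tcf3 (0.999 each), Dnmt3b to Spata2 and Llgl2 (0.997 each) and Numbl (0.996), and Tet3 to Ocrl (0.998), Pgap3 (0.997) and Jmy (0.996). Uhrf1 was nearest to Tex14 (0.991), a protein of germ cell bridges, then Atf6b (0.98) and Stk38 (0.976). Dnmt3l had no gene above 0.932, its value with Tyw1. Tet1 was nearest to Eln, which encodes elastin, Lpl and Ptprd (0.991 each), and genes near Tet2 included Sema5a (0.994) and Kitl (0.992), the ligand of Kit that Sertoli cells make. Whether the RNA of Tet1 and Tet2 came from other cells was not tested.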

How the data were processed

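The authors deposited 1 FPKM table per library, with 23021 rows and 22552 distinct symbols; repeated symbols (259, on 728 rows) were dropped and tables joined by symbol. Per the submitters' processing notes, tools included TopHat2 (2.0.6) and Cufflinks (2.0.2), with the build mm9. Counts and depth are unknown, so no counting interval was computed. Per the labels, libraries were directional (NEBNext Ultra) and sequenced on a HiSeq-X10. Of the mm9-based files only symbols were used, and coordinates and sequences are from GRCm38.

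From these values log2(FPKM + 1) was computed, and 1 model with a mean per group was fitted to 16 libraries and 14480 genes with limma 3.58.1 (R 4.3.3, trend, two-sided, residual df 10). Genes entered a comparison with 2 or more libraries of its cell types at an FPKM of 1 or above. Benjamini-Hochberg adjustment was done per comparison, with a threshold of 0.05. Other steps used Python 3.11.15, numpy 2.4.6, pandas 2.3.3 and matplotlib 3.10.9. The fit was tested on simulated data with known changes between knockout and wildtype. Of 100 changes of 1 log2 unit, it recovered 67 in spermatogonia, 82 in spermatocytes and 85 in cultures. False calls were 11 of 177, 13 of 193 and 21 of 205 in the same order. Changes of that size can thus be missed, most often in spermatogonia.

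The members, the gene lists and the tests were chosen with earlier results of these data known. Named genes were all members, up to 4 called genes with the smallest p per pathway list and comparison, the 3 genes most correlated with each member (FPKM of at least 5 in at least 2 libraries, unnamed models left out) and the first markers of each list. Some genes that this rule names are not reported here.

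Alternatives were a pseudocount of 0.1, no filter, quantile normalization, median-ratio scaling, fits of only the groups compared, a replicate block, and leaving out each library.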

Additional observations from a re-analysis of the deposited data

Results flagged for a closer look

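Among the genes around the Tet enzymes, 5 differences in the knockout's effect between cell types passed limma's test of the difference itself. Of 10 genes tested each time, 1 was called for spermatocytes against spermatogonia, 3 for cultures against spermatogonia and 1 for spermatocytes against cultures. Over all genes 2.14%, 1.81% and 2.02% were called. The calls came from Idh2, Gadd45b and Gadd45g only, in comparisons that share groups. Idh2 differed by 1.75 between spermatocytes and spermatogonia (adjusted p = 0.00164) and by 1.12 between cultures and spermatogonia (adjusted p = 0.0288); its FPKM was 33.2 ± 1.73 in wildtype and 11 ± 0.0226 in knockout spermatogonia, 2.99 ± 0.619 and 2.03 ± 0.285 in cultures, and 0.337 ± 0.193 and 0.579 ± 0.228 in spermatocytes. Gadd45b differed by -0.85 between cultures and spermatogonia (adjusted p = 0.0332) and by 1.09 between spermatocytes and cultures (adjusted p = 0.00546), with 105 ± 18.9 and 115 ± 0.640 FPKM in wildtype and knockout spermatogonia and 1.63 ± 0.127 and 2.43 ± 0.118 in spermatocytes. Gadd45g differed by -1.39 between cultures and spermatogonia (adjusted p = 0.0403), with 7.59 ± 1.27 FPKM in wildtype and a mean of 5.42 in knockout cultures. The value of Idh2 between spermatocytes and spermatogonia lost its call with a pseudocount of 0.1 (adjusted p = 0.115). Mean Idh2 was below 1 FPKM in spermatocytes of both genotypes, where the log2(FPKM + 1) scale shrinks differences. That value therefore mostly restates the difference in spermatogonia (-1.51) and does not show a separate effect in spermatocytes. The 3 values for cultures against spermatogonia lost their calls with a pseudocount of 0.1, with median-ratio scaling, with only the groups compared, and without any one of several libraries, with adjusted p of 0.0508 to 0.171 in the last case.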

How the results depend on the processing

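The alternatives were applied to the counts, to the 8 genes and to the named genes of the pathway lists. The count of the 8 genes called in knockout spermatogonia went from 1 to 0 with a pseudocount of 0.1 and to 2 without the filter, where Tet1 was added, and was 0 to 0 without each library in turn; without the filter Tet1 also gave 1 call each in the difference of the knockout effect between spermatocytes and spermatogonia and between cultures and spermatogonia. Those Tet1 calls rest on a spread pooled over libraries that mostly lie near 0 FPKM. Dnmt3b between wildtype cultures and spermatogonia lost its call under 4 settings: the pseudocount (adjusted p = 0.0860), no filter (0.0540), only the groups compared (0.161) and the replicate block (0.0861). Uhrf1 between wildtype spermatocytes and cultures went from -1.21 to -0.26 with median-ratio scaling (adjusted p = 0.0714).

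Counts over all genes moved more. In knockout spermatogonia 801 genes became 191 with a pseudocount of 0.1, 1243 with only the groups compared and 375 to 512 without a library. In knockout spermatocytes 1 became 0, 0, 7, 5 and 7 (pseudocount, only the groups compared, no filter, quantile, median-ratio) and 0 to 35 without a library. In knockout cultures 743 became 399 and 255 (pseudocount, only the groups compared) and 483 to 804. The differences of effects went from 295 to 17 and 574 and 121 to 343 (spermatocytes against spermatogonia), from 234 to 8, 41 and, with median-ratio scaling, 154, and 79 to 278 (cultures against spermatogonia), and from 280 to 11, 166, 147 with quantile and 161 with median-ratio scaling, and 96 to 410 (spermatocytes against cultures). The share of calls that were higher went from 13.7% to 39.9% in knockout spermatogonia and from 91.5% to 76.0% in spermatocytes against spermatogonia with quantile normalization, and with median-ratio scaling from 38.0% to 49.8% in wildtype spermatocytes against spermatogonia and, against cultures, from 36.8% to equal parts (6181 higher, 6182 lower).

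Directions turned for differences that had not passed the test, apart from Dnmt3l between wildtype spermatocytes and cultures (0.386 with quantile, 0.0553 with median-ratio scaling). These were Tet3 in knockout spermatogonia (0.0389 with quantile, 0.0108 with median-ratio scaling) and cultures (0.0642, quantile), Dnmt3a in wildtype cultures against spermatogonia (0.00397, replicate block), and differences of effects: with the pseudocount, Dnmt3a 0.0629 for spermatocytes against spermatogonia, Dnmt3a 0.0673 and Dnmt3b 0.195 for spermatocytes against cultures, and Dnmt3l 0.0607 and Tet2 -0.283 for cultures against spermatogonia; Dnmt3l 0.0548 (quantile) and Tet3 -0.0139 (median-ratio) for the last of these, and Tet3 -0.0135 (quantile) for spermatocytes against cultures. Without a library, the same held over ranges of -0.153 to 0.0790, -0.253 to 0.0671 and -0.104 to 0.219 for Dnmt1, -0.121 to 0.00316, -0.146 to 0.0608 and -0.128 to 0.0795 for Dnmt3a, -0.0221 to 0.226, -0.0760 to 0.294 and -0.192 to 0.178 for Tet3 (spermatocytes against spermatogonia, spermatocytes against cultures, cultures against spermatogonia), -0.162 to 0.138 for Dnmt3b and -0.382 to 0.0192 for Dnmt3l (spermatocytes against cultures), and -0.230 to 0.171 for Dnmt3l and -0.193 to 0.162 for Uhrf1 (cultures against spermatogonia). They also turned for Dnmt3a in wildtype cultures against spermatogonia (-0.105 to 0.102), Tet3 in knockout spermatogonia (-0.173 to 0.0750) and cultures (-0.241 to 0.129), and Dnmt3l in knockout cultures (-0.341 to 0.0600). The cause of these changes was not tested.

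Replicate numbers did not pair the libraries: deviations of same-numbered wildtype and knockout libraries correlated at -0.12 in spermatogonia, -0.32 to 0.25 in spermatocytes and -0.06 to 0.23 in cultures. With the replicate block Dnmt3b in knockout spermatogonia kept its call (adjusted p = 0.0424). With the spermatogonia numbers crossed, an alternative chosen after seeing the data, 815 genes and 1 of the 8 were called.

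Limits are 2 libraries per genotype in spermatogonia, an unknown depth, a log2 scale that shrinks differences of Dnmt3l, Tet1 and Tet2 near 1 FPKM, and preparations that hold RNA of other cells. RNA levels say nothing of protein or of methylation itself, which was not measured in these files.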
